A study of Mus musculus with 15 samples.

Results

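Sesn1, Ddit4, Txnip and Btg2 encode brakes on cell growth or division, and their RNA was followed across 15 two-colour cDNA arrays of a mouse cell line labelled as a lymphoid ES (embryonic stem) line. They are 4 of the 9834 genes named on the array and are covered by 5 of its 20205 probes. Their probes were found through the array's gene symbols, updated by gene identifier. On every array RNA of the treated line was hybridised together with RNA of the untreated line. The treated RNA carried the dye Cy5 on 8 arrays, which the titles number 1 to 8. On the other 7 arrays, 9 to 15, it carried Cy3 and the dyes were swapped. The labels name no treatment, dose, duration or genotype, and no number of cultures, so p-values measure the spread between arrays, which may be technical.

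The 4 genes were chosen because earlier work on these arrays placed the mean ratio of Sesn1 above 0 and those of Ddit4, Txnip and Btg2 below 0. Those mean ratios are therefore given as a description with no test. What the choice did not use is tested: the difference between the dye orientations, and whether the genes deviate together from array to array. The values are the deposited log2 ratios of the channels, and a ratio above 0 was taken to mean more RNA in the treated line. The labels do not state this. It was read, with the values in view, from spots with an empty channel, whose values lie above 0 on the Cy5 arrays and below 0 on the swaps. The ratios hold no level, so the genes cannot be ranked by abundance and the markers of the labelled line cannot be checked for presence. In these bulk samples, fewer cells of a type and less RNA per cell cannot be told apart.

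Sestrins, of which Sesn1 is one, and DDIT4 (also called REDD1) both restrain mTORC1, the kinase complex that drives protein synthesis and growth when nutrients are present. Sestrins act on the amino acid branch through the GATOR complexes, and DDIT4 acts through the TSC complex in hypoxia, DNA damage and glucocorticoid exposure. TXNIP is an alpha-arrestin that binds thioredoxin and lowers glucose uptake, and its gene is switched on by glucose through the factors MondoA and ChREBP. BTG2 brings the CCR4-NOT deadenylase to messenger RNAs and slows division, and its gene is both an early response gene and a p53 target. Sesn1 and Ddit4 are p53 targets as well, and Sesn1 and Txnip are FoxO targets in several cell types.

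The bases before each transcription start are shown because these genes are known for distinct upstream signals, and the letters show what their starts share. All 4 genes were matched in a RefSeq promoter table of build GRCm38.p6, Sesn1 with 2 starts; which of them gives the RNA on this array is not known. Each run below is the 250 bases before the start, 5′ to 3′ on the strand of the gene. Capitals mark matches to the letters described after them.
Sesn1, upstream start (chr10:41810324-41810573, plus strand): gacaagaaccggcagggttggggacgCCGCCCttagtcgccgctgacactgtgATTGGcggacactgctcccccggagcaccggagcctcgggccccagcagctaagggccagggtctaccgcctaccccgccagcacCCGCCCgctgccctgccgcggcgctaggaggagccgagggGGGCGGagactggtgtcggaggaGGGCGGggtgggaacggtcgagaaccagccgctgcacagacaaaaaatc
Sesn1, downstream start (chr10:41887189-41887438, plus strand): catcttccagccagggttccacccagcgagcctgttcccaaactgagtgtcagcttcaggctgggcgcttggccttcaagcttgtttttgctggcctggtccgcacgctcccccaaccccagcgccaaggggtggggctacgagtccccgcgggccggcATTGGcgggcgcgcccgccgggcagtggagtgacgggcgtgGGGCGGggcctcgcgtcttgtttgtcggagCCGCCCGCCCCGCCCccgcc
Ddit4 (chr10:59951771-59952020, minus strand): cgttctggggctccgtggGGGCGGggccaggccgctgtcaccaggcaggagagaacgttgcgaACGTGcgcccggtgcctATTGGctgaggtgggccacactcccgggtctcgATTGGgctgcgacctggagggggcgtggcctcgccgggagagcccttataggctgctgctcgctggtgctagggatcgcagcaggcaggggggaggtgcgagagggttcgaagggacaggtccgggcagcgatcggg
Txnip (chr3:96557707-96557956, plus strand): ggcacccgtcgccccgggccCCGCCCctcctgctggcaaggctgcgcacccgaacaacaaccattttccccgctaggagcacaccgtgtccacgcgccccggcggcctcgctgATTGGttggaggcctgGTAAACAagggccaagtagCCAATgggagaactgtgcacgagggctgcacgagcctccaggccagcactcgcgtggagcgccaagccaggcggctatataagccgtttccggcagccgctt
Btg2 (chr1:134079156-134079405, minus strand): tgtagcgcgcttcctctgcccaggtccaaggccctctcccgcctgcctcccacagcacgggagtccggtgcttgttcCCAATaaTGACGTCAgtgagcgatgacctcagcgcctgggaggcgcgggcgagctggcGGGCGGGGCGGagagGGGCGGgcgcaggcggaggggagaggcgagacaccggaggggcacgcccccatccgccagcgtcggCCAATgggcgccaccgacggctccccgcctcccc

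Each motif was searched on both strands. CCAAT, the box bound by NF-Y, stood in all 5 windows, against 33.8% of 32851 windows of the same length. The GC box, GGGCGG, also stood in all 5, against 32.7%. The genes differed in the rarer letters. The FoxO letters GTAAACA stood 121 bases before the start of Txnip, against 3.17% of windows. The cyclic AMP response element TGACGTCA stood 166 bases before the start of Btg2, against 1.55% of windows. The core of the hypoxia response element, ACGTG, stood 187 bases before the start of Ddit4, against 16.6% of windows. The E-box CACGTG, which contains that core, is in 6.02% of windows and had no match in the printed runs. The TATA box was searched only as TATAAA, in 12.4% of windows, and these letters had no match either. Other forms of the box were not searched. The glucocorticoid and carbohydrate response elements were searched only as full palindromes, which stood in 0.00913% and 0 of all windows. Letters so rare could hardly match, so their absence says nothing about these genes. Other forms of these elements were not searched. At the upstream start of Sesn1 the FoxO letters stood on the opposite strand 23 bases into the transcript, in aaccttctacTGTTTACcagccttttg (chr10:41810586-41810612, plus strand), outside the printed run. The windows of the 4 genes held 66.8 to 73.2% G and C, against a median of 52.4%. A match describes letters and not a bound site.

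Sesn1, the sestrin, lay above 0 on 13 of 15 arrays and in both dye orientations. With the treated RNA in Cy5 its log2 ratio had a lowest value of -0.37, a median of 0.62 and a highest value of 1.10 (n = 8). In the swaps the lowest value was 0.03, the median 0.62 and the highest 1.05 (n = 7). Only arrays 5 and 6 were below 0, and the ranges of the 2 orientations overlapped. The means were 0.45 ± 0.51 (SD) in Cy5 and 0.65 ± 0.38 (SD) in the swaps. Averaging the 2 orientation means gives the treatment estimate, 0.55 ± 0.11 (SE, n = 15), which is a ratio of 1.47. Sesn1 stood among the top 10% of genes on 8 arrays, 5 of them swaps, and its median position was above 92.9% of genes. With the sign of the swaps turned, it would be in the top 10% on 3 arrays and in the bottom 10% on 5, with a median position above 40.5% of genes. On array 6 it stood above 12.2% of genes, its lowest position.

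Ddit4, the second brake on mTORC1, was near 0 with the treated RNA in Cy5 and far below 0 in most swaps. In Cy5 its log2 ratio had a lowest value of -0.41, a median of -0.11 and a highest value of 0.14. In the swaps the lowest value was -1.52, the median -0.67 and the highest 0.01. Arrays 9, 10, 11, 12 and 14 were below all 8 Cy5 arrays, while arrays 13 and 15 lay within their range. The means were -0.10 ± 0.18 (SD, n = 8) in Cy5 and -0.72 ± 0.49 (SD, n = 7) in the swaps, with a treatment estimate of -0.41 ± 0.09 (SE). In the swaps it was the lowest of the 4 genes on 6 of 7 arrays. Its place among the bottom 10% of genes on 7 arrays came from 6 swaps and array 8, and with the swaps turned it would be in the top 10% on 6.

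Txnip, the arrestin, was below 0 on 14 of 15 arrays, with similar means in both orientations. In Cy5 its log2 ratio had a lowest value of -0.78, a median of -0.37 and a highest value of 0.32. In the swaps the lowest value was -0.42, the median -0.29 and the highest -0.09. Array 1 was alone above 0, and the swaps lay inside the range of the Cy5 arrays. The means were -0.35 ± 0.36 (SD, n = 8) and -0.27 ± 0.12 (SD, n = 7), with a treatment estimate of -0.31 ± 0.07 (SE).

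Btg2, the partner of the deadenylase, was below 0 on all 8 Cy5 arrays and on 6 of 7 swaps in the average of its 2 probes. In Cy5 its log2 ratio had a lowest value of -0.88, a median of -0.36 and a highest value of -0.08. In the swaps the lowest value was -0.32, the median -0.17 and the highest 0.04. Array 11 was alone above 0, and arrays 5, 6, 7 and 8 were below all swaps while arrays 1 to 4 overlapped with them. The means were -0.41 ± 0.28 (SD, n = 8) and -0.13 ± 0.12 (SD, n = 7), with a treatment estimate of -0.27 ± 0.06 (SE). On array 15 only one of the probes was measured, so the value there is that probe's.

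**Figure D1:**
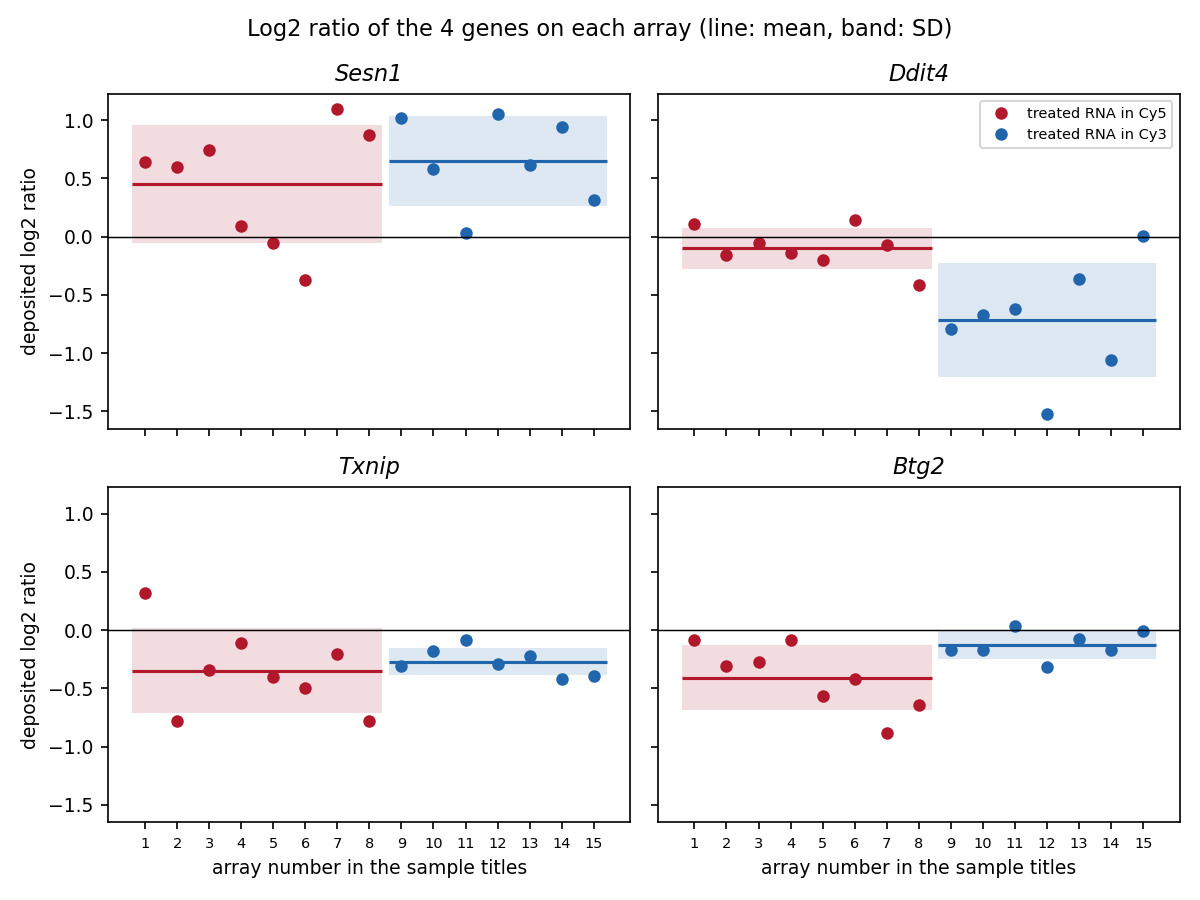
Deposited log2 ratio (vertical axis) of each gene on the 15 arrays (horizontal axis), red with the treated RNA in Cy5 and blue in Cy3; lines are the mean and bands the SD of each orientation. Sesn1 lies above 0 on 13 arrays, Txnip and Btg2 below 0 on 14 each, and Ddit4 is near 0 in red and at a mean of -0.72 in blue.

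In the order of the treatment estimates Sesn1 came first, then Btg2, Txnip and Ddit4. The last 3 differed from each other by less than the spread of any of them between arrays (SD 0.22 to 0.36 after removing the orientation means). On 10 of 15 arrays Sesn1 was above 0 and the other 3 genes were all below 0, on 5 of each orientation. Sesn1 was the highest of the 4 on 13 arrays. The lowest was Ddit4 on 7 arrays, Txnip on 5 and Btg2 on 3. These signs follow from how the genes were chosen. In limma's fit over 9720 genes, 4 genes (0.0412%) passed an adjusted p of 0.05 for the treatment estimate, and 0 of the 4 genes described here were among them. The unadjusted p was under 0.05 for all 4 in limma, as for 7.02% of all genes. Nothing is read from these counts.

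The 2 probes of Btg2 did not give the same picture. Probe 3966 was below 0 in both orientations, at -0.31 ± 0.28 (SD, n = 8) in Cy5 and -0.38 ± 0.30 (SD, n = 6) in the swaps. Probe 4088 was at -0.50 ± 0.45 (SD, n = 8) in Cy5 and 0.08 ± 0.25 (SD, n = 7) in the swaps, where 5 of 7 arrays were above 0. Over 14 arrays with both measured, the probes had the same sign on 6, and their deviations from the orientation means had r = -0.12. The gap between the probes (3966 minus 4088) averaged 0.19 in Cy5 and -0.47 in the swaps. Those averages differed by 0.66 (exact permutation test over the arrays, two-sided p = 0.0376, a comparison chosen after the values were seen). On 6 of the 8 Cy5 arrays the value of probe 3966 was that of a dim spot, meaning a ratio of whole numbers up to 6 times the constant of that array, and on 0 of the swaps. Across arrays, 3.61 to 16.1% of all values were of this kind. Probe 4088 had none. The part of spot brightness in the disagreement was not tested.

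**Figure D2:**
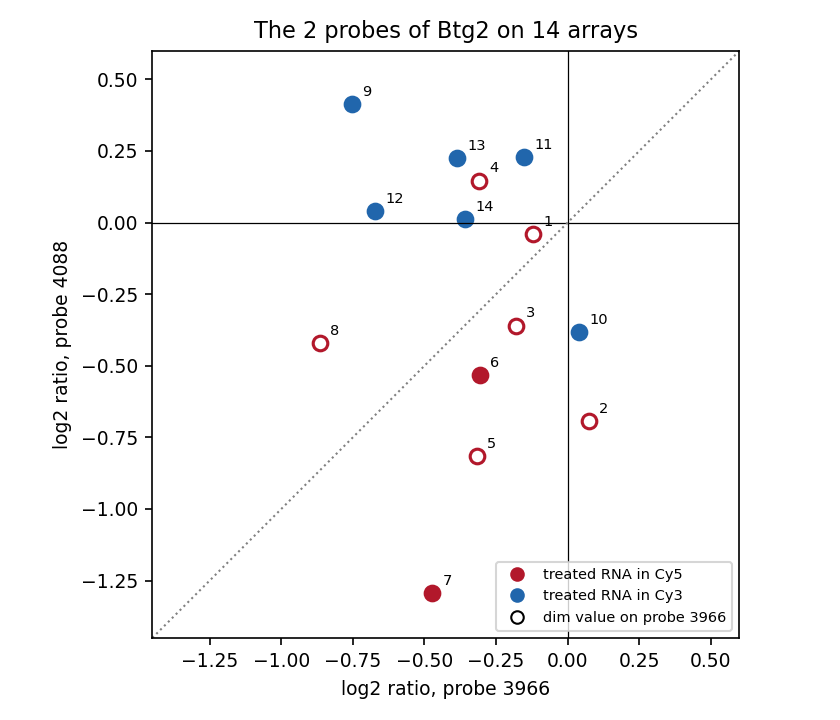
Log2 ratio of Btg2 on probe 3966 (horizontal) and probe 4088 (vertical), each point an array with its number, red with the treated RNA in Cy5 and blue in Cy3; open points are dim values on probe 3966 and the dotted line marks equality. The points do not follow the line: 5 of the 6 swaps shown are above 0 on probe 4088 and below 0 on probe 3966.

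Between dye orientations, Ddit4 had the widest gap of the 4 genes, without passing the test over all genes. The dye effect, the mean in Cy5 minus the mean in the swaps, was 0.62 ± 0.18 (SE) for Ddit4 (limma, adjusted p = 0.0746). It was -0.28 ± 0.13 for Btg2 (adjusted p = 0.224), -0.20 ± 0.22 for Sesn1 (adjusted p = 0.669) and -0.08 ± 0.15 for Txnip (adjusted p = 0.819). Of the 4 genes 0 passed limma's threshold, against 2.61% of all genes; 2 of them (Ddit4 and Btg2) had an unadjusted p under 0.05, against 19.5%. Genes past the threshold made up 1.92% with a dye effect above 0, the side of Ddit4, and 0.689% below 0, the side of Btg2. Fitted by probe, 0 of the 5 probes passed, against 2.74% of all probes, and 2 had an unadjusted p under 0.05, against 20.3%. Those were the Ddit4 probe and probe 4088 of Btg2 (-0.58 ± 0.19, limma adjusted p = 0.109). Ddit4 did pass without array 15 (0.74, adjusted p = 0.0271), without arrays 7, 8 and 15 (0.79, adjusted p = 0.0228) and after quantile normalization (0.72, adjusted p = 0.0439). Arrays 7, 8 and 15 correlated with any other array at no more than r = 0.083 over probes. Without them the treatment estimates were 0.49 for Sesn1, -0.44 for Ddit4, -0.28 for Txnip and -0.22 for Btg2.

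The direction of the swaps matters for these estimates. If the sign of the 7 swaps were turned, the estimate of Sesn1 would be -0.10 and that of Ddit4 0.31, the opposite of the signs above. Txnip would be at -0.04 and Btg2 at -0.14. Over all probes, the median correlation was 0.083 between arrays of the same orientation and -0.058 between arrays of opposite orientation. These correlations are weak. A shared treatment effect, deposited in the same direction on all arrays, would put the correlation between opposite orientations above 0, and its median was below 0. With the swaps turned that median would change its sign, and 254 genes instead of 4 would pass limma's threshold for the treatment estimate. Dye effects and swaps that need turning cannot be told apart here, so the direction taken is not settled.

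Over all 15 arrays, no pair of the 4 genes passed a test for moving together, or apart, from array to array. For each of the 6 pairs, the mean of each orientation was subtracted and the deviations were correlated over 15 arrays, which removes the mean ratios the genes were chosen on. The result is also the same whether or not the swaps are turned. The closest pair was Ddit4 and Btg2, with r = 0.41 (95% interval by Fisher's z -0.15 to 0.77; permutation p = 0.0235, adjusted over the pairs 0.141; rho = 0.60, permutation p = 0.0130, adjusted 0.0782). The interval assumes a common spread for all arrays while the permutations stay within each orientation, so the interval and the permutation test need not match. Both genes lay low on arrays 8 and 12 and high on array 1. Txnip and Btg2 had r = 0.405 (interval -0.16 to 0.77; permutation p = 0.265, adjusted 0.318; rho = 0.425, permutation p = 0.165, adjusted 0.208). Their r was 0.148 without array 1 and 0.663 without array 7. Ddit4 and Txnip had r = 0.22 (interval -0.35 to 0.67; permutation p = 0.214, adjusted 0.318; rho = 0.35, permutation p = 0.174, adjusted 0.208). They lay on the same side of their means on 12 of 15 arrays, and dropping array 8 gave r = 0.113, dropping array 1 gave 0.137 and dropping array 15 gave 0.379.

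The 3 pairs with Sesn1 had r below 0 and did not pass either. With Ddit4 it had r = -0.46 (interval -0.80 to 0.09; permutation p = 0.0508, adjusted 0.153; rho = -0.52, permutation p = 0.0474, adjusted 0.128). With Btg2 it had r = -0.43 (interval -0.78 to 0.13; permutation p = 0.159, adjusted 0.317; rho = -0.53, permutation p = 0.0641, adjusted 0.128). With Txnip it had r = -0.064 (interval -0.58 to 0.48; permutation p = 0.852, adjusted 0.852; rho = -0.12, permutation p = 0.701, adjusted 0.701), and r was above 0 without array 8 (0.0727) or without array 11 (0.0192). None of the 6 pairs passed after adjustment, by r or by rho; 1 pair by r and 2 by rho had an unadjusted p under 0.05. The intervals are wide. Among 8296 other genes with values on all arrays, the middle 95% of r with Sesn1 ran from -0.56 to 0.51, and r with Ddit4 and with Btg2 lay within it.

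Leaving out the 2 arrays farthest from the median of the first gene of the pair gave r = -0.53 for Sesn1 and Ddit4, -0.25 for Sesn1 and Txnip, and -0.74 for Sesn1 and Btg2 (arrays 5 and 6 out). It gave 0.22 for Ddit4 and Txnip and 0.32 for Ddit4 and Btg2 (arrays 12 and 14 out). For Txnip and Btg2 it gave 0.31 (arrays 1 and 2 out). The permutation p for these r, not adjusted over the pairs, was 0.0006 for Sesn1 and Btg2. It was 0.0899 for Sesn1 and Ddit4 and 0.184 to 0.455 for the other pairs. Within the swaps alone (n = 7) Sesn1 and Btg2 had r = -0.89 (exact permutation p = 0.00933, adjusted 0.0560), and Ddit4 and Btg2 had r = 0.83 (exact permutation p = 0.0220, adjusted 0.0661). Within the Cy5 arrays (n = 8) the same pairs had r = -0.32 and 0.38, and the lowest exact permutation p adjusted over the 6 pairs was 0.521. Without arrays 7, 8 and 15 the r of Sesn1 and Btg2 was 0.0249, and without array 7 alone it was -0.234. Array 7 holds the highest Sesn1 and the lowest Btg2 value of all. Without array 7 alone, Ddit4 and Btg2 had r = 0.55 (permutation test, adjusted p = 0.0373) and passed. With Btg2 read from probe 4088 alone, the r of Ddit4 and Btg2 was 0.0445, and from probe 3966 it was 0.48.

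**Figure D3:**
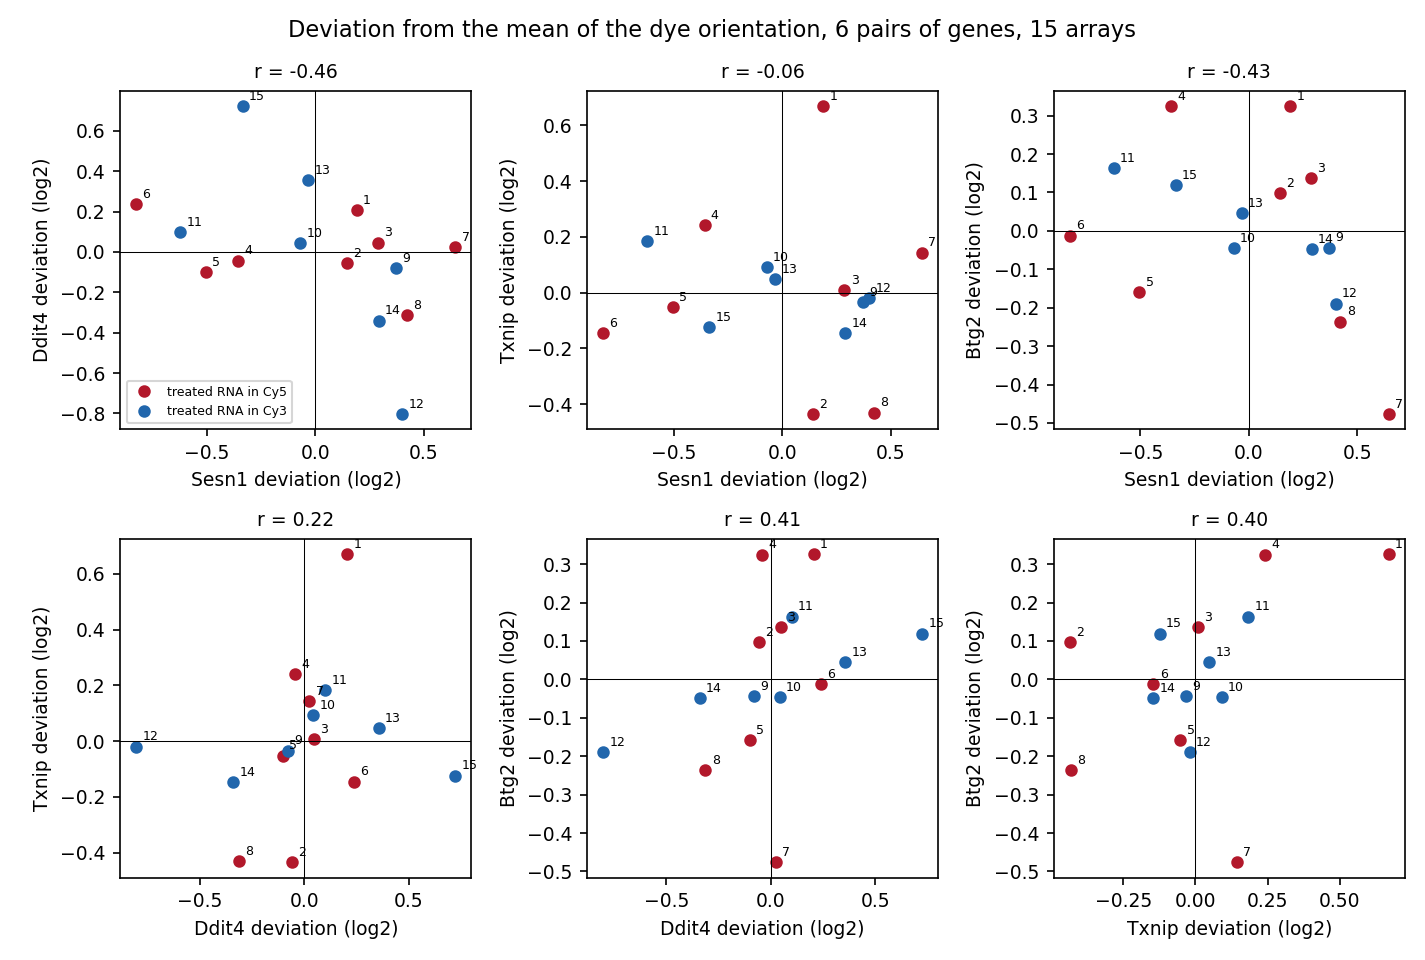
Deviation of one gene from the mean of its dye orientation (log2, horizontal) against that of another (vertical) for the 6 pairs, each point an array with its number, red with the treated RNA in Cy5 and blue in Cy3. Pairs of Sesn1 with Ddit4 and Btg2 have r = -0.46 and -0.43, the 3 pairs among the other genes r = 0.22 to 0.41, and all 6 scatter widely.

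The genes whose deviations were most like those of a member came from outside the lists of related genes. The pathway lists hold only 158 of the 9720 fitted genes, so a few extremes would often include none of them. Nothing is read from their absence. For Sesn1 the highest r over the 15 arrays was that of Itih2 (0.80), Dusp4 (0.76), a phosphatase of MAP kinases, and Enah (0.76), an actin regulator. The lowest was that of Hexim2 (-0.89), Hgfac (-0.87) and Proc (-0.85). For Ddit4 the highest were Gatc (0.90), Slc9a8 (0.87) and Aif1 (0.86), and the lowest 4930578I06Rik (-0.87), Vdac3 (-0.83) and Nr4a3 (-0.82), a nuclear receptor of the early response. For Txnip they were Pglyrp1 (0.85), Utp23 (0.83) and Rpl13 (0.81) against Plac8l1 (-0.82), Hlcs (-0.80) and Cd27 (-0.80). For Btg2 they were Vta1 (0.88), Spin1 (0.86) and Arhgap1 (0.85) against Nans (-0.86), Pnmal1 (-0.85) and Fndc4 (-0.85). These are the extremes of 8296 values each, on arrays that share dyes and a cell line, and are given with no test.

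Of 13 relatives of the 4 genes, 9 had values. Of these, 0 passed limma's threshold for the treatment estimate (adjusted p 0.696 to 0.987), against 0.0412% of all genes. Of the 9, 1 (Btg1) had an unadjusted p under 0.05 in limma, against 7.02% of all genes. With so few relatives, nothing is read from these counts. Sesn2, the sestrin best known as a leucine sensor, was at 0.17 ± 0.09 (SE) and above 0 on 11 arrays. Btg1, the nearest relative of Btg2, was at -0.33 ± 0.15 and below 0 on 12 arrays. Ddit4l, a relative of Ddit4, was measured on 10 arrays and at -0.11 ± 0.44. The alpha-arrestins Arrdc1, Arrdc2, Arrdc4 and Arrdc5 were at 0.06 ± 0.12, 0.03 ± 0.07, 0.02 ± 0.08 and 0.09 ± 0.08. Btg4 was at 0.06 ± 0.24 and Tob2 at 0.01 ± 0.07. Between orientations 1 of the 9, Arrdc5, passed limma's test (dye effect 0.70 ± 0.16, adjusted p = 0.0341), against 2.61% of all genes. Sesn3, Arrdc3, Btg3 and Tob1 had 0 probes under their symbols on this array.

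Among 10 lists of genes tied to the 4 genes by pathway or signal, 158 further genes were fitted, and 0 passed limma's threshold over all genes. An unadjusted p under 0.05 was found for 25, of which 9 were above and 16 below 0. That is 15.8% against 7.02% of all genes (adjusted p 0.0558 to 0.710 in limma). Without arrays 7, 8 and 15 there were 20, of which 10 were above and 10 below 0. With the swaps turned there were 28, of which 17 were above and 11 below 0, or 17.7% against 19.5% of all genes. With that sign the share was not above that of all genes. The lists were drawn up with earlier results of these arrays known, so this share is a description and no evidence of its own. The median estimate of the 158 genes was -0.01, and that of all genes was 0.01.

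Among all genes, 3.94% had an unadjusted p under 0.05 with an estimate above 0 and 3.08% below 0, and 5052 were above 0 and 4668 below. The counts for each list stand against these, and all rest on the sign of the swaps as deposited.

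Of 15 fitted p53 targets other than the members, 8 were above 0 and 7 below, and without arrays 7, 8 and 15 6 of 14 and 8. One had an unadjusted p under 0.05: Xpc, a sensor of DNA damage, at -0.21 ± 0.08 (SE). Of 13 FoxO targets, 8 were above 0 and 5 below, and with the swaps turned 5 and 8. The CDK inhibitor Cdkn1b was at 0.41 ± 0.13 and above 0 on 12 arrays, and Foxo3 itself was at 0.14 ± 0.07. Both are on the side of Sesn1, whereas Txnip, a FoxO target too, is on the other. These 2 were the FoxO targets with an unadjusted p under 0.05 in limma. That count was 1 without arrays 7, 8 and 15 or with arrays centred on their median, and 0 with the swaps turned.

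Of 16 glucocorticoid targets, 7 were above 0 and 9 below, with 3 and 4 at an unadjusted p under 0.05. Without arrays 7, 8 and 15 it was 9 above and 7 below, with 2 and 2. Cebpd, a C/EBP transcription factor, was at 0.34 ± 0.06, Rgs2, a brake on G protein signalling, at 0.27 ± 0.07 and Klf9 at 0.16 ± 0.07. Below 0 were Btg1, the NF-kB inhibitor Nfkbia at -0.25 ± 0.08, the annexin Anxa1 at -0.24 ± 0.08 and Klf13 at -0.17 ± 0.08. Ddit4 and Txnip, both known targets, were below 0 as well. Of 28 genes of the mTORC1 pathway, 16 were above 0 and 12 below, and without arrays 7, 8 and 15 19 and 9. Mlst8, a subunit of the complex, was at -0.14 ± 0.06 and the lysosomal anchor subunit Lamtor4 at -0.29 ± 0.12.

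Of 15 genes of thioredoxin, arrestins and glucose sensing, 10 were above 0 and 5 below, but 7 and 8 after quantile normalization. Thioredoxin itself, Txn1, the protein that TXNIP binds, was at -0.18 ± 0.07 and below 0 on 12 arrays. Of 11 genes of the BTG/TOB family and CCR4-NOT, 5 were above 0 and 6 below, and 3 and 8 with arrays centred on their median. Prmt1, a methyltransferase that binds BTG proteins, was at -0.14 ± 0.06, beside Btg1 above. Of 17 CDK inhibitors and growth arrest genes, 8 were above 0 and 9 below, and 12 and 5 with the swaps turned. Besides Cdkn1b and Btg1, those with an unadjusted p under 0.05 were Gas1 at 0.32 ± 0.14, the CDK inhibitor Cdkn1c at -0.16 ± 0.06 and the pocket protein Rbl1 at -0.12 ± 0.05. Without arrays 7, 8 and 15, 0 of this list and 0 of the BTG/TOB list were below 0 at an unadjusted p under 0.05 in limma. Cdkn1c, like Ddit4, was lower in the swaps, with a dye effect of 0.63 ± 0.12 that passed limma's test (adjusted p = 0.0182).

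Of 19 genes of amino acid and unfolded protein stress, 7 were above 0 and 12 below, and 11 and 8 with the swaps turned. An unadjusted p under 0.05 was found for 4, all below 0 in this fit. It was found for 1 above and 4 below after quantile normalization (5 and 14 in all), and for 2 above and 3 below without arrays 7, 8 and 15 (8 and 10 in all). Atf4, the central factor of this response, was at -0.32 ± 0.11 and below 0 on 14 arrays, and Ddit3 was at -0.17 ± 0.06. The amino acid transporter Slc7a5 was at -0.30 ± 0.08 and Herpud1 at -0.11 ± 0.05. Of 11 hypoxia genes, 5 were above 0 and 6 below, with Mxi1, a Max partner that opposes Myc, at 0.30 ± 0.08. Of 23 proliferation genes, 7 were above 0 and 16 below, and without arrays 7, 8 and 15 11 and 12. Pcna was at 0.17 ± 0.07 and Top2a at 0.15 ± 0.05, both replication or mitosis genes, and the cyclin Ccnd2 at -0.14 ± 0.06.

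**Figure D4:**
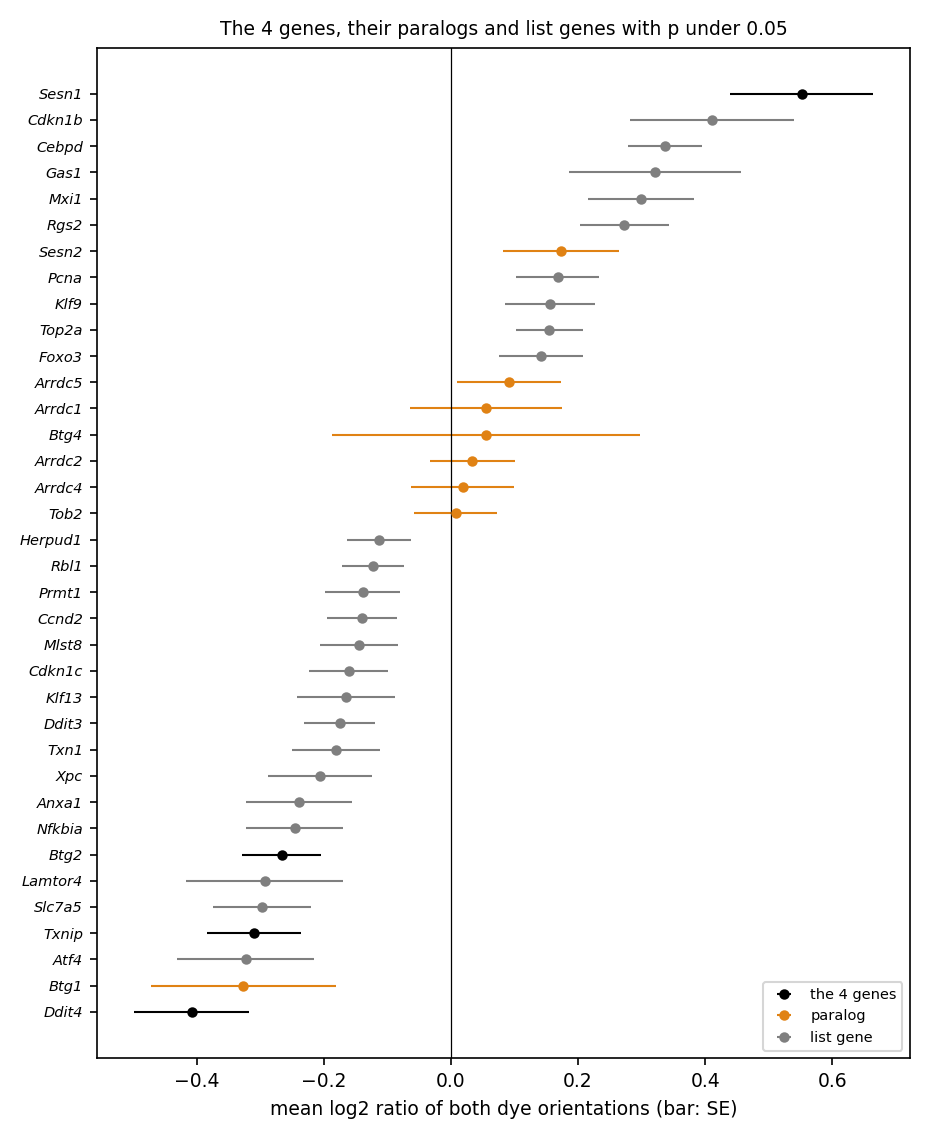
Treatment estimate (mean log2 ratio of both dye orientations, horizontal axis; bars are SE) of the 4 genes in black, their relatives in orange and list genes with an unadjusted p under 0.05 in grey; Ddit4l, with an SE of 0.44, is left out. Sesn1 lies farthest above 0 at 0.55 and Ddit4 farthest below at -0.41, and no gene drawn passed limma's threshold over all genes.

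For the treatment estimate, 0 of the cell type markers passed limma's threshold, against 0.0412% of all genes. An unadjusted p under 0.05 in limma was found for 1 of 10 pluripotency, 2 of 9 lymphoid and blood, 1 of 8 fibroblast and 3 of 10 myeloid markers. Each of these shares is above the 7.02% of all genes, but rests on few genes. For the dye effect 1 of 10 myeloid markers passed and 0 of the other markers, against 2.61% of all genes. Of 10 pluripotency markers 6 were above 0 and 4 below, of 9 lymphoid and blood markers 4 and 5, and of 8 fibroblast markers 5 and 3 (4 and 4 after quantile normalization). Of 10 myeloid markers 1 was above 0 and 9 below, with a median of -0.11; 3 of these had an unadjusted p under 0.05 in limma, against 3.08% of all genes on that side. With the swaps turned, 7 myeloid markers were above 0 and 3 below. Their part in the ratios of the 4 genes was not tested.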

How the data were processed

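The deposited table holds 1 log2 ratio per probe and array; the unit was read from the values, while the sources used here do not give normalization, background correction or direction. Between 19213 and 19973 probes per array were measured, with medians of -0.02 to 0.06 and SDs of 0.35 to 0.82. Deposited log2 values above 10 in size were set missing: each array holds 17 to 239 of them, all of 1 identical number per array. The platform table gave 13891 probes 1 symbol, 5 several and 6309 none; 13855 were updated through RefSeq identifiers. No gene coordinates are given, because no build is named for the probes. Probes of a gene were averaged per array. limma 3.58.1 (R 4.3.3) was fitted to genes measured on 4 or more arrays per orientation, with the orientation as a term and Benjamini-Hochberg adjustment over all genes. The fit and the permutation tests (100000 within orientation, or exact) were checked on simulated data. The number of arrays limits the precision. Genes named are the members, their relatives, list genes with an unadjusted p under 0.05, and the 3 highest and 3 lowest in r per member. The members and lists were chosen with earlier results of these data known. Alternatives were other normalizations, filters, probes, orientations and arrays left out.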

Additional observations from a re-analysis of the deposited data

How the results depend on the processing

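The treatment estimates of the 4 genes kept their sign when any one array was left out (Sesn1 0.51 to 0.61, Ddit4 -0.47 to -0.34, Txnip -0.36 to -0.28, Btg2 -0.29 to -0.23) and under centring, scaling, quantile normalization, other filters, array weights and either orientation alone. With the dye swaps turned, Sesn1 was at -0.10 and Ddit4 at 0.31, by construction. The dye effect of Ddit4 passed limma's threshold after quantile normalization (0.72, adjusted p = 0.0439) and without arrays 7, 8 and 15 (0.79); leaving out one array gave 0.48 to 0.74, past the threshold without array 15. With probe 3966 alone, chosen after seeing the data, the dye effect of Btg2 was 0.0682. Leaving out one array gave r from -0.521 to -0.400 for Sesn1 and Ddit4, -0.545 to -0.234 for Sesn1 and Btg2, 0.113 to 0.379 for Ddit4 and Txnip, 0.148 to 0.663 for Txnip and Btg2, -0.219 to 0.0727 for Sesn1 and Txnip (above 0 without array 8 or 11) and from 0.33 to 0.55 for Ddit4 and Btg2 (past the threshold without array 7). The r of Sesn1 and Txnip was 0.0299 on the Cy5 arrays alone, that of Sesn1 and Btg2 0.0249 without arrays 7, 8 and 15, and that of Ddit4 and Btg2 -0.14 on the values as deposited, where their opposite dye effects are left in. List genes with an unadjusted p under 0.05 numbered 20 to 28 against 25, with 28 when the swaps were turned, an alternative added after seeing the data. Over all genes, calls for the treatment estimate ranged from 0 (without array 10, without arrays 7, 8 and 15, or with either orientation alone) to 11 (array weights), against 4, with 7 without array 6, 2 without array 11, and 8 with placeholders left in or the most measured probe per gene. Calls for the dye effect ranged from 99 (without array 6) to 676 (array weights), against 254, with 431 without array 7 and 571 without arrays 7, 8 and 15. Turning the swaps exchanges these counts, 254 for the treatment estimate and 4 for the dye effect. The cause was not tested. Treated and untreated RNA are paired within each array through the ratio. Arrays could not be paired with each other, because they form 1 group and share no replicate numbers.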
